A study of Mus musculus with 18 samples.

Results

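Sorted pre-mid-pachytene spermatocytes of 2 translocation carrier genotypes were compared with sorted mid-late-pachytene spermatocytes of fertile C57BL/10J males, and the genes that differed in the same direction in both genotypes are reported. The carrier cells came from C57BL/10J-Ttf+/+T43H males (3 arrays, called Ttf/T43H here) and from C57BL/10J-t12+/+T43 males (3 arrays, called t12/T43). They were set against the mid-late sort of C57BL/10J fertile males (2 arrays). A pre-mid sort of C57BL/10J males (2 arrays) served as normal cells of the same sorted stage. All 4 groups came from males aged 2 months, their spermatocytes were sorted by FACS, and 20 to 30 ng of RNA per sample went through a 2-cycle biotin labelling. The 8 arrays of the main comparison belong to a series of 18 mouse expression arrays on the meiotic effects of unsynapsed autosomal chromatin, and the design text calls the replicates biological. T43H and T43 name a reciprocal translocation between chromosomes 16 and 17, and t12 is a t haplotype, a variant of the proximal part of chromosome 17. Ttf is given as it stands in the strain name. No mid-late sort of carrier males was analysed here. Every carrier array therefore differs from every mid-late array in genotype and in sorted stage at once, and these cannot be told apart in this comparison. A gene was tested if at least 2 of the 8 arrays reached a log2 value of 4, which 9591 of 15780 named genes did. Of these, 5219 differed from mid-late cells in the same direction in both genotypes, 2780 of them higher and 2439 lower in carriers.

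Pachytene is the long stage of meiotic prophase in which homologous chromosomes are held together by the synaptonemal complex and recombination is completed. The X and Y chromosomes, which lack a full partner in the male, are silenced at this stage inside the sex body, and autosomal regions that fail to synapse are silenced by the same machinery. As normal cells pass through pachytene, transcripts of early prophase decline and a large set of genes for the meiotic divisions, the acrosome and the sperm tail is switched on. Both sets of genes are therefore given below. They do not by themselves place a sort along this path, because spermatids and somatic cells in it could add to their levels.

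Values are log2 expression values as deposited, in which a difference of 1 is a doubling, and each change below is the log2 difference of a carrier group from mid-late cells with limma's standard error (SE; n = 3, 3 and 2 arrays). A call is an adjusted p under 0.05 over all 9591 genes, and both genotypes were compared with the same 2 mid-late arrays. The labelled cell type was checked against marker genes. The synaptonemal complex gene Sycp3 was high on every array, at 15.60, 15.23 and 15.78 in Ttf/T43H cells, 15.70, 15.31 and 16.10 in t12/T43 cells, and 13.77 and 13.89 in mid-late cells, as in C57BL/10J pre-mid cells (15.24 and 15.38). Pearson correlations between replicate arrays ran from 0.910 to 0.992 across genes. Ttf/T43H replicate 2 and t12/T43 replicate 2 took part in the lower of these. Ttf/T43H replicate 2 had the highest mean over 14 spermatogonial genes, at 9.44, while the remaining carriers ranged from 7.54 to 8.23 and mid-late cells had 4.43 and 4.28. Sertoli cell markers also moved with the groups. Their mean over 11 genes ranged from 9.65 to 11.3 in carriers, against 4.71 and 5.16 in mid-late cells. C57BL/10J pre-mid arrays stood at 8.98 and 9.10. Of these 11 genes 10 were higher in both carrier groups, and Sox9 was not called. Leydig genes are described with the stress genes at the end. Of 6 peritubular and endothelial genes 2 were higher, Acta2 and Tagln, and of 2 macrophage and blood genes 1 was lower, Adgre1. The part of these cells in the results below was not tested. The arrays furthest from their own groups in these marker levels were Ttf/T43H replicate 2 and t12/T43 replicate 3. Without both, chosen after seeing the data, 2978 genes were higher and 2563 lower in both genotypes, against 2780 and 2439 with all arrays. RNA integrity was read from probes at both ends of 2 transcripts. The excess of the 3' over the 5' probe was 3.26 to 3.98 log2 units for Gapdh in carriers, against 2.51 and 3.39 in mid-late cells, and 3.06 to 4.41 for actin in carriers, against 3.51 and 3.38. The C57BL/10J pre-mid arrays lay below every carrier array, with Gapdh at 2.86 and 2.93 and actin at 2.49 and 2.51.

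In both genotypes the carrier cells differed from mid-late cells at a large share of the tested genes in each direction. Of all genes tested, 29% were higher and 25.4% lower in both carrier groups, 54.4% together, and these shares are the background for every count below. Ttf/T43H cells had 2905 genes higher and 2606 lower, and t12/T43 cells had 3159 higher and 2789 lower. The mean of the carrier groups, whose changes are given for some genes, was higher at 33.4% and lower at 29.3% of genes. The median size of a shared change was 2.61 on the log2 scale for genes higher in carriers and 2.28 for genes lower. Changes of at least 4, a 16-fold difference, were found at 715 genes higher and 451 genes lower. Among the genes higher in carriers, 714 (25.7%) had both mid-late arrays under a log2 value of 4, where the arrays carry little signal. Among the genes lower in carriers, 509 (20.9%) had all 6 carrier arrays under 4. The 6 carrier arrays lay wholly above the 2 mid-late arrays at 35.6% of the genes tested and wholly below at 32.9%. The median change of all tested genes was 0.14 in the mean of the carrier groups, and it became -0.07 after quantile normalization and -0.16 after median centring. Changes of that size therefore have no settled direction. In the second fit, which adds the 2 arrays of C57BL/10J pre-mid cells, these normal cells differed from mid-late cells at 2927 genes higher and 2537 lower of 9666 (30.3% and 26.2%). That comparison shares the mid-late arrays with the carrier comparisons, so only the values are set side by side.

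Of the 10 largest rises among the shared calls, 6 were X-linked. They were ranked by the smaller of the 2 genotype changes, which ended at 8.64 for Txn1, the last gene taken, with Rps6ka6 next at 8.57. Prss50, a protease-like gene of the testis, stood at 12.17, 12.47 and 11.79 in Ttf/T43H cells, 12.45, 11.80 and 12.96 in t12/T43 cells, and 2.04 and 2.07 in mid-late cells. No carrier array came near the mid-late values, and the changes were 10.09 ± 0.37 and 10.35 ± 0.37 (adjusted p = 2.4e-06 and 1.9e-06). With values under 4 counted as 4, Prss50 was at least 309-fold higher in carriers. Sohlh2, a transcription factor of spermatogonia and early meiosis, stood at 11.53, 9.78 and 11.69 in Ttf/T43H cells, 11.96, 11.58 and 11.87 in t12/T43 cells, and 1.83 and 2.89 in mid-late cells, with changes of 8.64 ± 0.60 and 9.45 ± 0.60. Ttf/T43H replicate 2 was the lowest carrier array for this gene. Marcksl1, an actin-binding MARCKS family gene, had changes of 10.43 ± 0.60 and 10.60 ± 0.60, and Txn1, the thioredoxin gene, changes of 8.64 ± 0.57 and 8.80 ± 0.57. The other 6 lie on the X chromosome. They are the homeobox gene Rhox13, the testis antigen gene Fmr1nb, the transketolase-like gene Tktl1, Bex1, the ADP/ATP carrier gene Slc25a5 and the translocon gene Ssr4. Their changes in the mean of the carrier groups lay between 8.74 for Ssr4 and 10.41 for Rhox13.

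The largest falls were genes at or near background in the carriers and well expressed in mid-late cells. Slc25a54, a mitochondrial carrier family gene, stood at 2.07, 2.09 and 2.24 in Ttf/T43H cells, 2.09, 2.95 and 2.07 in t12/T43 cells, and 11.43 and 11.53 in mid-late cells. All 6 carrier arrays were under 4, and the changes were -9.35 ± 0.31 and -9.11 ± 0.31 (adjusted p = 1.9e-06 and 1.8e-06). Dnah6, an axonemal dynein heavy chain gene, stood at 2.33, 3.85 and 3.62 in Ttf/T43H cells, 2.15, 3.37 and 1.88 in t12/T43 cells, and 12.12 and 11.52 in mid-late cells, with changes of -8.55 ± 0.59 and -9.35 ± 0.59. Pkdrej, a polycystin family gene of sperm, and Ovol2, a zinc finger transcription factor gene, had changes of -7.64 ± 0.18 and -7.64 ± 0.21 in the mean of the carrier groups. The remaining 6 were Egflam, Tmed6, the cytochrome P450 gene Cyp2d26, the inositol trisphosphate receptor partner gene Itprip, the transporter gene Abca14 and Pdzph1, with mean changes between -8.05 and -7.31. The ranking ended at -7.31 for Pdzph1, with Prss42 next at -7.26. In C57BL/10J pre-mid cells the values were 2.80 and 2.13 for Slc25a54, 2.1 and 2.18 for Pkdrej and 2.53 and 2.62 for Ovol2, so normal cells of the earlier sort had these genes near background too. Dnah6 was higher there, at 5.26 and 4.01, and the difference of carriers from these cells was -1.77 ± 0.55 (adjusted p = 0.092), not a call.

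**Figure D1:**
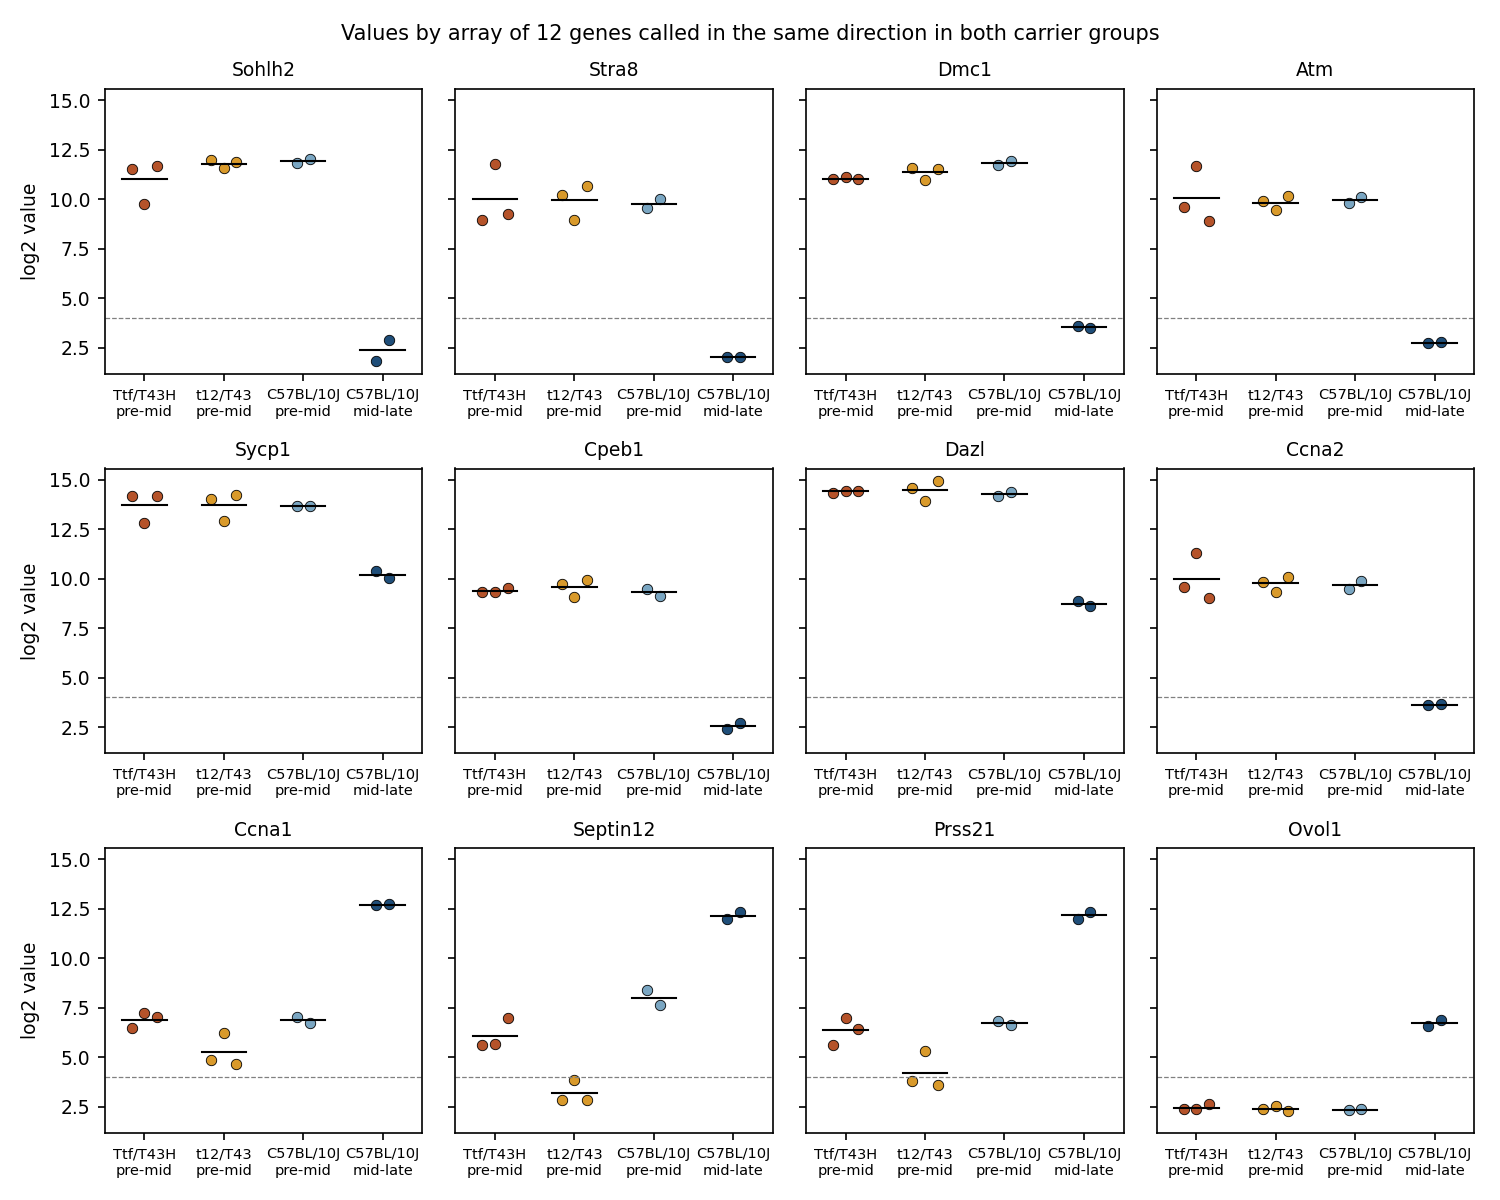
Log2 values (vertical axis) of 12 genes on the 3 Ttf/T43H, 3 t12/T43, 2 C57BL/10J pre-mid and 2 C57BL/10J mid-late arrays. Points are arrays, bars are group means, and the dashed line marks the log2 value of 4 used in the filter. The 8 genes of the upper rows lie higher in all 3 pre-mid groups than in mid-late cells, where Sycp1 and Dazl stay far above the line. The 4 genes of the bottom row lie lower in carriers than in mid-late cells.

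The X chromosome held the largest share of genes higher in carriers among the chromosomes with more than 3 genes tested. Of 294 X-linked genes tested, 209 (71.1%) were higher in both carrier groups and 7 lower, where autosomal genes had 27.6% higher and 26.2% lower. The median X-linked change was 3.78. In all, 238 of the 294 genes had every carrier array above both mid-late arrays. The level of the X, taken as its mean minus that of the autosomes other than 16 and 17, was -0.57, 0.13 and -1.03 on the Ttf/T43H arrays, -0.61, -0.45 and 0.21 on the t12/T43 arrays, and -3.85 and -3.98 on the mid-late arrays. The carrier arrays and the mid-late arrays did not overlap. C57BL/10J pre-mid cells stood at -0.44 and -0.39, inside the range of the carriers. In bulk RNA of this kind, fewer cells that express a gene and less RNA per cell cannot be told apart. Of the 209 genes, 126 had both mid-late arrays under a log2 value of 4.

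**Figure D2:**
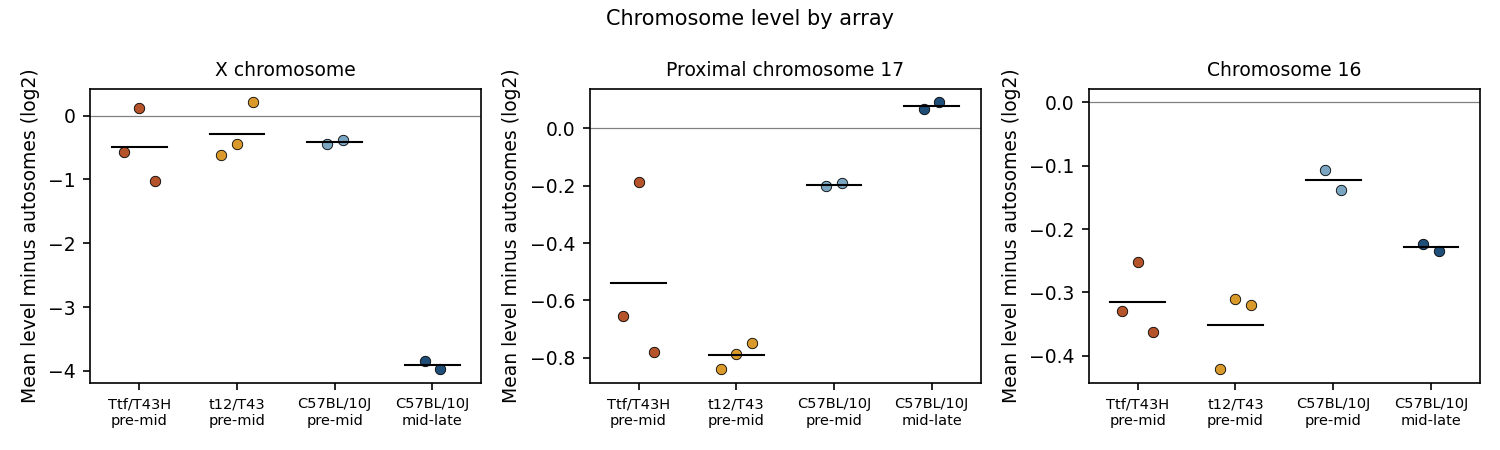
Mean log2 level of the X chromosome, proximal chromosome 17 and chromosome 16 minus that of the other autosomes, per array. Points are arrays and bars are group means, for Ttf/T43H, t12/T43, C57BL/10J pre-mid and C57BL/10J mid-late cells. The X ranges from -1.03 to 0.21 over the 6 carrier arrays, against -3.85 and -3.98 for mid-late cells, while proximal 17 lies between -0.84 and -0.19 in carriers and at 0.07 and 0.09 in mid-late cells.

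Among X-linked genes used by most cells, 19 of 21 tested members were higher in both carrier groups, with a median change of 4.31. Hprt, the purine salvage gene, stood at 10.81, 12.08 and 10.34 in Ttf/T43H cells, 11.14, 11.12 and 11.86 in t12/T43 cells, and 3.75 and 5.30 in mid-late cells, with changes of 6.55 ± 0.63 and 6.85 ± 0.63 (adjusted p = 8.7e-05 and 5.9e-05). Ndufa1, a subunit of respiratory complex I, stayed measurable in mid-late cells and stood at 14.89, 15.07 and 14.77 in Ttf/T43H cells, 14.89, 14.70 and 15.48 in t12/T43 cells, and 10.52 and 10.80 in mid-late cells, with changes of 4.25 ± 0.29 and 4.37 ± 0.29. Its mid-late values lie far above background, so the difference does not rest on the floor of the arrays. Ddx3x, an RNA helicase gene, had changes of 6.03 ± 0.57 and 6.28 ± 0.57, and Cetn2, a centrin gene, changes of 6.42 ± 0.47 and 6.43 ± 0.47. The 2 members not called were Atrx and Ubl4a, and Ubl4a stood at 6.85, 8.55 and 5.75 in Ttf/T43H cells, 6.36, 6.73 and 6.79 in t12/T43 cells, and 4.72 and 5.30 in mid-late cells. Without Ttf/T43H replicate 2 or replicate 3, Ubl4a was called as well (adjusted p = 0.0329 and 0.0306).

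X-linked germ cell genes moved in the same direction with larger sizes. Of 11 tested, 9 were higher in both carrier groups, with a median change of 6.86. Tex11, a gene required for recombination and synapsis in male meiosis, stood at 10.67, 12.26 and 10.51 in Ttf/T43H cells, 11.04, 11.17 and 11.91 in t12/T43 cells, and 3.72 and 3.40 in mid-late cells, with changes of 7.59 ± 0.55 and 7.81 ± 0.55 (adjusted p = 2.4e-05 and 1.7e-05). Taf7l, a germ cell form of a general transcription factor subunit, stood at 11.49, 12.91 and 11.00 in Ttf/T43H cells, 11.75, 11.56 and 12.72 in t12/T43 cells, and 3.31 and 4.19 in mid-late cells, with changes of 8.05 ± 0.62 and 8.26 ± 0.62. Scml2, a Polycomb family gene of germ cells, had changes of 7.61 ± 0.54 and 7.69 ± 0.54, and Ccnb3, a cyclin gene of early meiosis, changes of 7.50 ± 0.49 and 7.81 ± 0.49. The 2 members that were not called are Akap4 and Tex13a. Akap4, a sperm tail gene, stood at 10.14, 10.28 and 10.83 in Ttf/T43H cells, 5.61, 9.61 and 4.76 in t12/T43 cells, and 10.76 and 9.95 in mid-late cells. Tex13a stood at 5.16, 6.31 and 6.30 in Ttf/T43H cells, 5.01, 5.82 and 4.81 in t12/T43 cells, and 6.76 and 6.34 in mid-late cells. Both were lower than in C57BL/10J pre-mid cells, with a change of -4.47 ± 1.07 (adjusted p = 0.04) for Akap4 and -2.83 ± 0.39 (adjusted p = 0.0049) for Tex13a. The 3 Y-linked genes tested, Zfy2, Eif2s3y and Usp9y, were also higher. Usp9y, a ubiquitin protease gene, stood at 11.05, 10.31 and 10.35 in Ttf/T43H cells, 10.64, 10.04 and 11.92 in t12/T43 cells, and 2.83 and 3.17 in mid-late cells. Zfy2, a zinc finger gene that acts at the end of meiotic prophase, had changes of 2.93 ± 0.68 and 3.76 ± 0.68, and it lost its call without mid-late replicate 2 (adjusted p = 0.0748).

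The 7 X-linked genes lower in carriers are all named here after their values were seen, and the count was 4 without Ttf/T43H replicate 1, mid-late replicate 1 or mid-late replicate 2. Fam47c, Satl1 and Akap14 had the largest changes, at -3.10 ± 0.28 and -3.18 ± 0.28 for Fam47c, -1.94 ± 0.57 and -3.93 ± 0.57 for Satl1 and -2.51 ± 0.73 and -3.58 ± 0.73 for Akap14, a gene for a kinase anchoring protein of the sperm tail. The others were Rai2, Nudt10, 4931400O07Rik and 5730416F02Rik, with mean changes between -1.51 and -0.80. Their carrier group means lay between 3.22 and 3.73 and their mid-late means between 4.32 and 5.11, so these differences lie near background. Among genes that failed the filter, 89.1% were also lower in carriers, with a median of -0.18. Satl1 was lower than in C57BL/10J pre-mid cells too, with a change of -3.99 ± 0.49 (adjusted p = 0.0031). Calls of Akap14, Satl1, Nudt10 and 5730416F02Rik did not hold in every fit that left out an array.

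Autosomal retrocopies of X-linked genes, intronless copies that take over when the X is silent, were lower in part while their X-linked partners were higher. Of 9 tested, 4 were lower in carriers and 5 were not called (44.4% lower against 25.4% of all genes). Their median change of -0.66 rested on Ttf/T43H replicate 2 and was -0.14 without it. Pgk2, the testis phosphoglycerate kinase gene on chromosome 17, stood at 10.35, 10.82 and 11.07 in Ttf/T43H cells, 7.53, 10.37 and 7.43 in t12/T43 cells, and 13.53 and 13.81 in mid-late cells. Its changes of -2.92 ± 0.83 and -5.23 ± 0.83 were called, and the call was lost without Ttf/T43H replicate 1 (adjusted p = 0.0522), mid-late replicate 1 (0.0814) or mid-late replicate 2 (0.105). Cetn1, the copy of the centrin gene Cetn2, stood at 10.92, 10.58 and 11.49 in Ttf/T43H cells, 10.35, 10.44 and 10.01 in t12/T43 cells, and 13.29 and 13.52 in mid-late cells, with changes of -2.41 ± 0.32 and -3.14 ± 0.32 where Cetn2 had changes of 6.42 ± 0.47 and 6.43 ± 0.47. Utp14b, the copy of the ribosome biogenesis gene Utp14a, had changes of -1.62 ± 0.24 and -1.67 ± 0.24, and Utp14a itself 5.86 ± 0.73 and 5.92 ± 0.73. Gk2, a glycerol kinase gene, had changes of -2.55 ± 0.48 and -3.37 ± 0.48. The pyruvate dehydrogenase copy Pdha2 and the transketolase copy Tktl2 had changes of -0.62 ± 0.76 and -0.66 ± 0.81 in the mean of the carrier groups and were not called, while their X-linked partners Pdha1 and Tktl1 had 2.87 ± 0.32 and 9.35 ± 0.36. Ttf/T43H replicate 2 was the lowest array for both copies, at 11.25 for Pdha2 and 5.88 for Tktl2. In the 5 pairs with both genes tested, the X-linked gene was higher in all 5 and the copy was lower in 2.

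Genes of meiotic entry and early prophase were higher in carriers than in mid-late cells. Of 14 spermatogonial and meiotic entry genes tested, 10 were higher and 4 were not called (71.4% against 29% of all genes), with a median change of 3.18. Without mid-late replicate 2, 6 were higher. Stra8, which starts meiosis in answer to retinoic acid, stood at 8.94, 11.79 and 9.28 in Ttf/T43H cells, 10.22, 8.95 and 10.67 in t12/T43 cells, and 2.01 and 2.05 in mid-late cells. Mid-late cells were at background and every carrier array was far above it, with changes of 7.98 ± 0.87 and 7.92 ± 0.87 (adjusted p = 0.00017 and 0.00014). Uchl1, a ubiquitin hydrolase gene of spermatogonia, stood at 9.48, 11.43 and 8.56 in Ttf/T43H cells, 9.54, 7.36 and 9.80 in t12/T43 cells, and 2.29 and 2.34 in mid-late cells, with changes of 7.51 ± 0.95 and 6.59 ± 0.95. Ythdc2, an RNA helicase gene needed for the entry into meiosis, had changes of 3.23 ± 0.36 and 3.44 ± 0.36. Ttf/T43H replicate 2 was the highest array for Stra8 and Uchl1, as for the mean of this list.

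Recombination genes followed the same direction, with 13 of 20 tested members higher and 1 lower and a median change of 2.63. Without mid-late replicate 1, 8 were higher. Dmc1, the meiosis-specific recombinase gene that pairs homologous DNA strands, stood at 11.01, 11.11 and 11.01 in Ttf/T43H cells, 11.57, 10.99 and 11.54 in t12/T43 cells, and 3.58 and 3.50 in mid-late cells. The 6 carrier arrays lay within 1 log2 unit of each other, and the changes were 7.50 ± 0.25 and 7.83 ± 0.25 (adjusted p = 1.9e-06 and 1.6e-06). Meiob, a single-strand DNA binding protein gene on chromosome 17, stood at 12.51, 11.15 and 12.59 in Ttf/T43H cells, 12.33, 12.08 and 12.76 in t12/T43 cells, and 7.65 and 8.0 in mid-late cells, with changes of 4.26 ± 0.47 and 4.57 ± 0.47. Tex15, which acts in double-strand break repair, had changes of 6.46 ± 0.72 and 6.24 ± 0.72, and Brca1 changes of 2.35 ± 0.23 and 2.87 ± 0.23. Brca1 was at the same time lower than in C57BL/10J pre-mid cells, with a change of -0.82 ± 0.19 (adjusted p = 0.037) and values of 6.32 and 6.52 there. Spo11, the gene of the enzyme that makes the breaks, stood at 12.45, 11.02 and 12.70 in Ttf/T43H cells, 12.46, 11.97 and 12.33 in t12/T43 cells, and 12.40 and 12.25 in mid-late cells and was not called, with a change of -0.17 ± 0.44 in the mean of the carrier groups. The single member lower in carriers was Hsf2bp, a partner of BRCA2 in meiotic repair that lies on proximal chromosome 17. It stood at 9.24, 9.36 and 9.41 in Ttf/T43H cells, 9.47, 9.44 and 9.26 in t12/T43 cells, and 10.63 and 10.56 in mid-late cells, with changes of -1.26 ± 0.21 and -1.20 ± 0.21, and was lower than in C57BL/10J pre-mid cells (11.27 and 11.21) as well.

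Synaptonemal complex genes were higher in carriers at 7 of 12 tested members and lower at 1, with a median change of 2.00. Sycp1, the transverse filament gene, stood at 14.17, 12.84 and 14.19 in Ttf/T43H cells, 14.03, 12.94 and 14.25 in t12/T43 cells, and 10.37 and 10.04 in mid-late cells, with changes of 3.52 ± 0.54 and 3.53 ± 0.54 (adjusted p = 0.00089 and 0.00079). Tex12, a central element gene, stood at 12.74, 12.52 and 12.88 in Ttf/T43H cells, 13.00, 11.59 and 13.11 in t12/T43 cells, and 8.50 and 8.46 in mid-late cells, with changes of 4.23 ± 0.45 and 4.09 ± 0.45. Syce2, another central element gene, had changes of 3.61 ± 0.52 and 3.45 ± 0.52, Trip13, whose ATPase remodels axis proteins, 2.86 ± 0.29 and 2.81 ± 0.29, and the axis gene Sycp3 1.71 ± 0.30 and 1.88 ± 0.30. Syce1, a central element gene, went the other way, at 12.12, 12.21 and 12.38 in Ttf/T43H cells, 12.12, 11.36 and 12.04 in t12/T43 cells, and 13.13 and 13.32 in mid-late cells. Its changes were -0.99 ± 0.29 and -1.39 ± 0.29, and its call was lost without Ttf/T43H replicate 1 (adjusted p = 0.0651), mid-late replicate 1 (0.0612) or mid-late replicate 2 (0.105). Members of 1 structure therefore did not all share a direction.

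DNA damage signalling genes, whose products also carry out meiotic silencing, were higher at 9 of 19 tested members and lower at 1, with a median change of 1.75. Atm, the kinase gene that responds to double-strand breaks, stood at 9.60, 11.67 and 8.92 in Ttf/T43H cells, 9.89, 9.43 and 10.17 in t12/T43 cells, and 2.73 and 2.77 in mid-late cells, with changes of 7.31 ± 0.72 and 7.08 ± 0.72 (adjusted p = 0.0001 and 0.0001). Ubr2, a ubiquitin ligase gene on chromosome 17 that acts in silencing of unsynapsed chromatin, stood at 8.54, 9.73 and 8.46 in Ttf/T43H cells, 8.88, 8.40 and 9.14 in t12/T43 cells, and 2.65 and 2.78 in mid-late cells, with changes of 6.19 ± 0.43 and 6.09 ± 0.43. Uimc1, whose product binds ubiquitin at breaks, had changes of 3.53 ± 0.34 and 3.45 ± 0.34. Rnf168, a ubiquitin ligase gene on chromosome 16, was the member lower in carriers, with changes of -1.59 ± 0.43 and -1.29 ± 0.43. Its call was lost without t12/T43 replicate 1 or 2 (adjusted p = 0.0937 and 0.0544) or mid-late replicate 1 or 2 (0.0994 and 0.152).

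RNA-binding genes of translational control changed in both directions. Of 14 tested, 4 were higher and 4 lower (28.6% each), close to the 29% and 25.4% of all genes. Without mid-late replicate 2, 2 were lower. Dazl, a translational activator of early germ cells on chromosome 17, stood at 14.34, 14.46 and 14.46 in Ttf/T43H cells, 14.58, 13.91 and 14.92 in t12/T43 cells, and 8.87 and 8.62 in mid-late cells, with changes of 5.68 ± 0.32 and 5.73 ± 0.32 (adjusted p = 8.7e-06 and 7e-06). Cpeb1, a regulator of poly(A) tails required in pachytene, stood at 9.35, 9.31 and 9.51 in Ttf/T43H cells, 9.72, 9.10 and 9.94 in t12/T43 cells, and 2.38 and 2.68 in mid-late cells, with changes of 6.86 ± 0.30 and 7.05 ± 0.30. The poly(A)-binding protein partners Paip2 and Paip2b had changes of 3.96 ± 0.33 and 4.46 ± 0.22 in the mean of the carrier groups. Papolb, the testis poly(A) polymerase gene, went the other way at 7.49, 7.65 and 8.21 in Ttf/T43H cells, 5.45, 6.28 and 4.75 in t12/T43 cells, and 12.41 and 12.48 in mid-late cells, with changes of -4.67 ± 0.45 and -6.95 ± 0.45. Ybx3, a messenger RNA storage protein gene, had changes of -1.31 ± 0.25 and -2.57 ± 0.25, and Ddx25, an RNA helicase gene of spermatids, -2.02 ± 0.48 and -2.64 ± 0.48. The last of the lower members was Adad1. Ddx25 lost its call without mid-late replicate 2 (adjusted p = 0.0648).

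Cyclins and division regulators changed in opposite directions within a single list. Of 23 tested, 3 were higher and 7 lower, beside 29% and 25.4% of all genes. Ccna1, the germ cell cyclin A1 gene that is required for the exit from meiotic prophase, stood at 6.46, 7.23 and 7.01 in Ttf/T43H cells, 4.84, 6.23 and 4.64 in t12/T43 cells, and 12.68 and 12.74 in mid-late cells. Every carrier array lay more than 5 log2 units below both mid-late arrays, with changes of -5.81 ± 0.49 and -7.47 ± 0.49 (adjusted p = 4.9e-05 and 1.3e-05). Ccna2, the mitotic form of the gene, went the opposite way at 9.59, 11.29 and 9.01 in Ttf/T43H cells, 9.82, 9.35 and 10.11 in t12/T43 cells, and 3.62 and 3.65 in mid-late cells, with changes of 6.33 ± 0.62 and 6.13 ± 0.62. Cdkn3, a phosphatase gene that acts on cyclin-dependent kinases, stood at 9.28, 9.94 and 9.02 in Ttf/T43H cells, 8.89, 8.27 and 8.88 in t12/T43 cells, and 12.13 and 11.91 in mid-late cells, with changes of -2.60 ± 0.35 and -3.34 ± 0.35. The mitotic kinase genes Plk1 and Aurka were lower, with changes of -2.58 ± 0.42 and -2.22 ± 0.42 in the mean of the carrier groups. Hspa2, the testis chaperone gene needed for the activity of CDK1 in spermatocytes, stood at 12.92, 11.95 and 13.79 in Ttf/T43H cells, 13.08, 12.68 and 13.19 in t12/T43 cells, and 12.94 and 13.17 in mid-late cells and was not called. In C57BL/10J pre-mid cells Ccna1 stood at 7.04 and 6.71, and the difference of carriers from these cells was -0.81 ± 0.41 (adjusted p = 0.29).

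**Figure D3:**
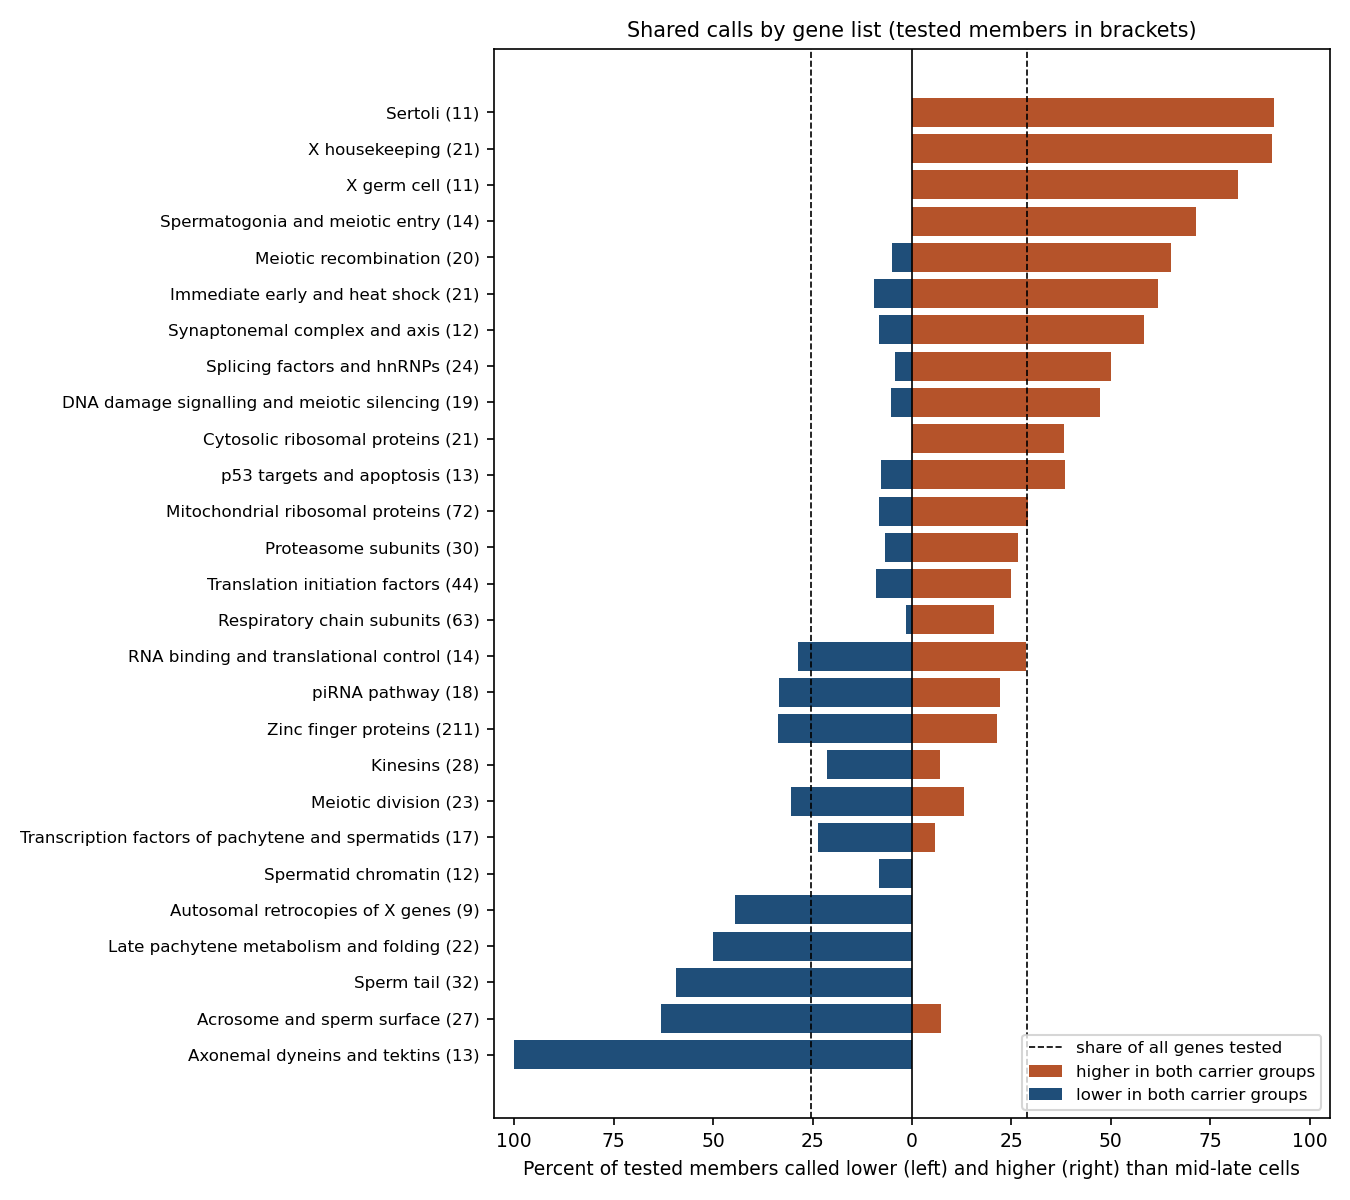
Percent of tested members of each gene list called higher (right) and lower (left) in both carrier groups than in mid-late cells, with the number tested in brackets. Dashed lines mark the shares over all 9591 genes, 29% higher and 25.4% lower. X-linked, meiotic entry and recombination lists extend to the right, and acrosome, tail and axoneme lists extend to the left.

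Genes of the sperm tail were lower in carriers. Of 32 tested, 19 were lower and 13 were not called (59.4% against 25.4% of all genes), with a median change of -2.34. Septin12, a septin gene of the sperm tail, stood at 5.63, 5.65 and 6.97 in Ttf/T43H cells, 2.85, 3.83 and 2.81 in t12/T43 cells, and 11.96 and 12.32 in mid-late cells. The t12/T43 arrays were under 4 and the Ttf/T43H arrays between 5.63 and 6.97, with changes of -6.06 ± 0.50 and -8.98 ± 0.50 (adjusted p = 4.5e-05 and 6.9e-06). Tekt5, a tektin gene of the axoneme, stood at 4.32, 3.70 and 5.69 in Ttf/T43H cells, 2.76, 2.76 and 2.57 in t12/T43 cells, and 10.22 and 10.93 in mid-late cells, with changes of -6.00 ± 0.55 and -7.88 ± 0.55. Spag16, a gene of the central pair of axonemal microtubules, stood at 5.25, 4.88 and 6.59 in Ttf/T43H cells, 4.10, 5.14 and 3.46 in t12/T43 cells, and 11.11 and 11.32 in mid-late cells, with changes of -5.64 ± 0.62 and -6.98 ± 0.62. Dnali1, a dynein light chain gene, had changes of -4.39 ± 0.49 and -5.53 ± 0.49. Of the family of axonemal dyneins and tektins, all 13 tested members were lower in both carrier groups, with a median change of -4.62. Among them Dnah12 and Dnah2 had changes of -5.58 ± 0.34 and -4.18 ± 0.28 in the mean of the carrier groups. The kinesin Kif9, whose product is found in the sperm flagellum, had changes of -4.21 ± 0.44 and -4.83 ± 0.44, while Kif5b, a kinesin gene of general transport, had 4.16 ± 0.50 and 3.81 ± 0.50.

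Acrosome and sperm surface genes were also lower. Of 27 tested, 17 were lower and 2 higher, with a median change of -3.14. The count of lower members was 10 without Ttf/T43H replicate 1, 9 without mid-late replicate 1 and 10 without mid-late replicate 2. Prss21, a membrane protease gene of sperm on chromosome 17, stood at 5.63, 7.0 and 6.45 in Ttf/T43H cells, 3.80, 5.30 and 3.57 in t12/T43 cells, and 12.01 and 12.34 in mid-late cells, with changes of -5.81 ± 0.59 and -7.95 ± 0.59 (adjusted p = 0.00012 and 2.2e-05). Acrbp, whose product binds proacrosin, stood at 6.88, 6.30 and 7.37 in Ttf/T43H cells, 5.38, 4.70 and 4.90 in t12/T43 cells, and 11.78 and 11.88 in mid-late cells, with changes of -4.99 ± 0.36 and -6.84 ± 0.36, and Acr, the acrosin gene itself, had -3.60 ± 0.48 and -5.18 ± 0.48. Zpbp and Zpbp2, zona pellucida binding protein genes, had changes of -3.48 ± 0.26 and -4.53 ± 0.47 in the mean of the carrier groups. The 2 members higher in carriers were the surface protein genes Tex101, with changes of 3.28 ± 0.46 and 3.35 ± 0.46, and Ly6k, with changes of 1.44 ± 0.50 and 1.51 ± 0.50. Ly6k lost its call in 6 of the 8 fits that left out an array, with adjusted p up to 0.207 without mid-late replicate 1.

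Transcription factor genes of pachytene and spermatids were for the most part not called. Of 17 tested, 4 were lower (23.5%, beside 25.4% of all genes) and 1, Taf7l, was higher. Without mid-late replicate 1, 2 were lower. Ovol1, a zinc finger repressor gene of pachytene cells, stood at 2.36, 2.36 and 2.62 in Ttf/T43H cells, 2.35, 2.53 and 2.28 in t12/T43 cells, and 6.59 and 6.87 in mid-late cells, with changes of -4.29 ± 0.23 and -4.35 ± 0.23 (adjusted p = 7e-06 and 5.7e-06). Gtf2a1l, the germ cell form of a TFIIA subunit gene on chromosome 17, stood at 11.41, 10.92 and 12.20 in Ttf/T43H cells, 11.51, 11.72 and 10.86 in t12/T43 cells, and 14.32 and 14.34 in mid-late cells, with changes of -2.82 ± 0.42 and -2.97 ± 0.42. The other 2 were Tbpl1, a TBP-like gene, with a change of -1.16 ± 0.26 in the mean of the carrier groups, and Mybl1, the A-MYB gene of pachytene, with -1.12 ± 0.29. Tbpl1 lost its call without mid-late replicate 1 or 2 (adjusted p = 0.0572 and 0.0602). Mybl1 lost its call in 5 of the 8 fits that left out an array, with adjusted p up to 0.286 without mid-late replicate 1. Crem, the activator gene of spermatid transcription, stood at 8.20, 7.07 and 8.63 in Ttf/T43H cells, 7.57, 8.94 and 8.07 in t12/T43 cells, and 8.76 and 8.74 in mid-late cells and was not called.

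Among 22 genes of late pachytene metabolism and protein folding, 11 were lower and 11 were not called (50% against 25.4% of all genes), with a median change of -1.81. Slc2a5, a fructose transporter gene, stood at 9.04, 8.45 and 9.84 in Ttf/T43H cells, 8.68, 8.27 and 7.89 in t12/T43 cells, and 13.04 and 13.01 in mid-late cells, with changes of -3.92 ± 0.43 and -4.75 ± 0.43 (adjusted p = 0.00017 and 5.3e-05). Spink2, a protease inhibitor gene of germ cells, stood at 9.80, 10.32 and 10.25 in Ttf/T43H cells, 7.51, 8.06 and 7.95 in t12/T43 cells, and 13.03 and 13.40 in mid-late cells, with changes of -3.09 ± 0.29 and -5.38 ± 0.29. Of 6 genes of the t complex, the region of chromosome 17 in which t haplotypes differ, 4 were lower, namely Tcte1, Tcte2, Tcp11 and Tcp10c, with a median change of -5.42 over the 6. Tcp10c lost its call without any 1 of the 3 Ttf/T43H arrays (adjusted p = 0.0838, 0.051 and 0.0661) or without mid-late replicate 1 or 2 (0.125 and 0.159). Tcte1, an axonemal gene, stood at 2.26, 3.09 and 2.93 in Ttf/T43H cells, 2.43, 2.44 and 2.32 in t12/T43 cells, and 9.48 and 9.75 in mid-late cells, with changes of -6.86 ± 0.30 and -7.22 ± 0.30. Tcte2 had changes of -4.87 ± 0.43 and -7.33 ± 0.43. Tcp11, which is involved in sperm motility, stood at 9.59, 9.95 and 10.30 in Ttf/T43H cells, 6.96, 8.07 and 6.62 in t12/T43 cells, and 13.26 and 13.37 in mid-late cells, with changes of -3.37 ± 0.44 and -6.10 ± 0.44. In C57BL/10J pre-mid cells Tcp11 stood at 12.01 and 11.56, above every carrier array, and the difference of carriers from these cells was -3.20 ± 0.38 (adjusted p = 0.0026).

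The promoters of 3 of these genes are shown because the genes fell together in both genotypes and carry the core of the X-box, the site bound by RFX factors upstream of many genes of cilia and flagella. They were picked for that core. It was absent from the promoters of Septin12, Tekt5, Dnali1, Dnah6, Dnah12 and Dnah2, which were also lower in carriers. It was present in those of Acrbp and Kif9, also lower, and of Cetn2, Trip13 and Mov10l1, which were higher. Sequences are from RefSeq on GRCm38.p6, run 5′ to 3′ on the strand of the gene from 250 bases before its start to 50 after it, and capitals mark GTTGCC or its reverse complement GGCAAC.
Spag16, chr1:69826720-69827019, + strand: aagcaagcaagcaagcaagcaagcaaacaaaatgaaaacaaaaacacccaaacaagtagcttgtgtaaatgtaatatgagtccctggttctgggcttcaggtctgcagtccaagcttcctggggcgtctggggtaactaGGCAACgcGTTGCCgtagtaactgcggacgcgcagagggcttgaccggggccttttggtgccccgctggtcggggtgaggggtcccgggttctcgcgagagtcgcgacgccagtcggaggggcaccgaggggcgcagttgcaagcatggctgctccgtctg
Prss21, chr17:23867822-23868121, + strand: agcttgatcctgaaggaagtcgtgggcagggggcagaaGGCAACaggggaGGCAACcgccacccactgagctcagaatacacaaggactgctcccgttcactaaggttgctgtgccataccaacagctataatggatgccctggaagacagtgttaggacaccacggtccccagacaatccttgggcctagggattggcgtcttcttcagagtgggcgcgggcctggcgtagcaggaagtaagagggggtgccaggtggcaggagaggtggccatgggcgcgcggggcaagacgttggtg
Tcp11, chr17:28080590-28080889, - strand: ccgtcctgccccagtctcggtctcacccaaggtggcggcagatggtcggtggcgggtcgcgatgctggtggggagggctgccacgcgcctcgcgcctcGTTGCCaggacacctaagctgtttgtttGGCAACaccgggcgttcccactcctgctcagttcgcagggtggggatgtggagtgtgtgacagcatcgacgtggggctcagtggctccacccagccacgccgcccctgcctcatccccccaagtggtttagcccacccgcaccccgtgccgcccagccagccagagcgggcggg
In Spag16 the sites begin 111 and 103 bases before the start, on opposite strands. In Prss21 both lie on the reverse strand, 212 and 200 bases before the start. In Tcp11 they lie 152 and 124 bases before it, on opposite strands. Searched on both strands, the letters GTTGCC occurred in 325 of 1997 promoters of genes lower in both carrier groups (16.3%), in 258 of 2307 promoters of genes higher (11.2%), in 13.9% of the 7904 tested genes with a promoter sequence, and in 12.7% of all 27025 promoters of the table. The core AACTG of the MYB site occurred in 43.2% of promoters of genes lower in carriers, 34.2% of genes higher, 38.2% of tested genes and 44.8% of all promoters. The cAMP response element TGACGTCA occurred in 3.0% of promoters of genes lower, 3.29% of genes higher, 3.53% of tested genes and 1.88% of all promoters. These letters describe the windows and show no binding, and no test was made of the shares.

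Some spermatid genes differed between the 2 genotypes. Of 12 genes of spermatid chromatin tested, 3 were called lower in t12/T43 than in Ttf/T43H cells and 9 were not called for that difference. Against mid-late cells only Hspb9 was called lower in both groups. Hspb9 is a small heat shock protein gene that was part of this list. The median change of the list was 1.20 in Ttf/T43H and -2.62 in t12/T43 cells. In all, 4 of 9591 genes (0.0417%) were called in opposite directions, higher in Ttf/T43H and lower in t12/T43 cells. They were Tnp2, Prm2, Prss37 and 4933400A11Rik. Tnp2, a transition protein gene that replaces histones in spermatids, stood at 9.62, 10.87 and 9.71 in Ttf/T43H cells, 4.59, 3.46 and 4.68 in t12/T43 cells, and 6.25 and 6.20 in mid-late cells. The 3 groups did not overlap, with changes of 3.85 ± 0.50 and -1.98 ± 0.50 (adjusted p = 0.00041 and 0.0098), and the difference of t12/T43 from Ttf/T43H cells was -5.83 ± 0.45 (adjusted p = 0.0095). Prm2, a protamine gene, stood at 10.17, 9.97 and 9.95 in Ttf/T43H cells, 5.03, 6.46 and 5.26 in t12/T43 cells, and 8.93 and 8.48 in mid-late cells, with changes of 1.32 ± 0.43 and -3.12 ± 0.43 and a difference between the genotypes of -4.44 ± 0.38 (adjusted p = 0.012). Over all genes, the difference between the genotypes was called at 39 genes lower in t12/T43 cells (0.407%) and 3 higher (0.0313%). The 3 were Sphk1, Cth and Cd36, named after their values were seen. In C57BL/10J pre-mid cells Tnp2 stood at 11.27 and 10.06 and Prm2 at 12.80 and 12.18, above both carrier groups in the case of Prm2. The mean level of the 12 genes was 8.76, 9.56 and 8.97 on the Ttf/T43H arrays and 4.72, 6.86 and 4.99 on the t12/T43 arrays, where t12/T43 replicate 2 was the highest. Mid-late arrays stood at 8.47 and 7.85 and C57BL/10J pre-mid arrays at 10.9 and 10.2. These genes are known mainly from round and elongating spermatids, and the number of spermatids in each sort was not measured.

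**Figure D4:**
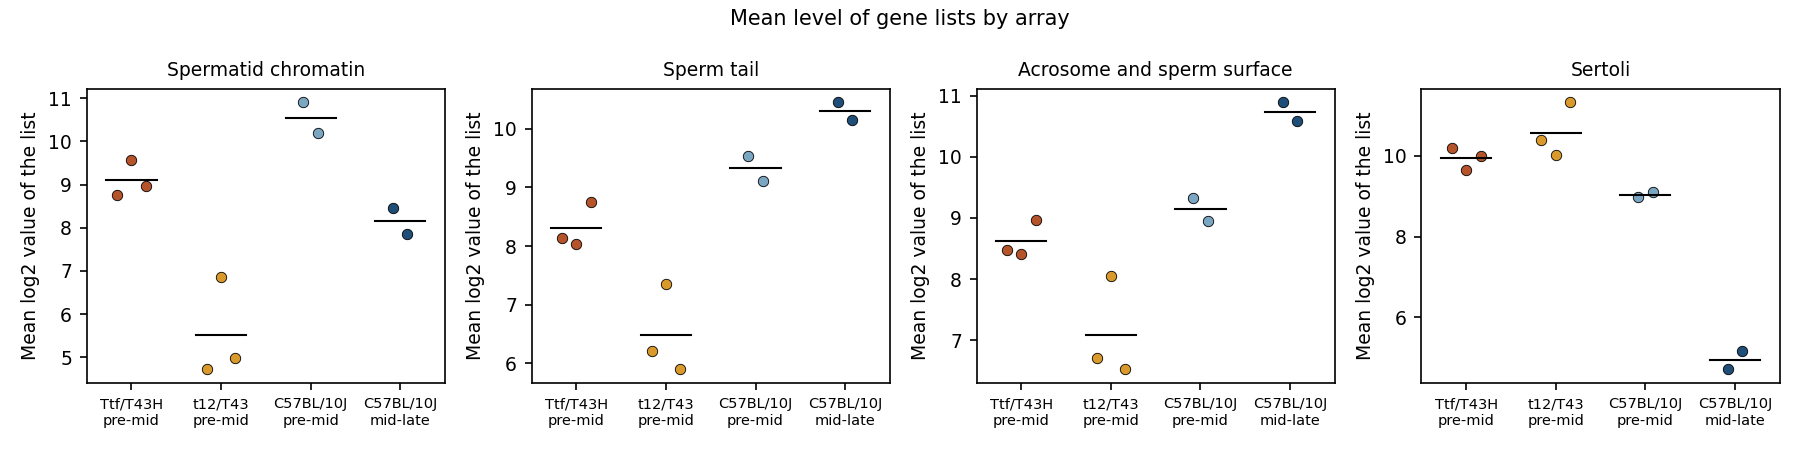
Mean log2 value per array of the tested genes of 4 lists, in Ttf/T43H, t12/T43, C57BL/10J pre-mid and C57BL/10J mid-late cells. Points are arrays and bars are group means. Spermatid chromatin genes lie between 8.76 and 9.56 in Ttf/T43H cells and between 4.72 and 6.86 in t12/T43 cells, and Sertoli genes lie between 9.65 and 11.3 in carriers and at 4.71 and 5.16 in mid-late cells.

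Most genes that set the carriers apart from mid-late cells did not set them apart from normal cells of the same sorted stage. The direct comparison of the carrier mean with C57BL/10J pre-mid cells called 273 of 9666 genes higher (2.82%) and 475 lower (4.91%). Of the 2780 genes higher than mid-late cells in both genotypes, 151 (5.43%) were also above C57BL/10J pre-mid cells, 26 were below them, and 2603 were not called. Of the 2439 genes lower than mid-late cells, 178 (7.30%) were also below C57BL/10J pre-mid cells, 38 were above them, and 2223 were not called. The comparisons with both normal sorts use the same 6 carrier arrays. Genes picked for high or low carrier values therefore lean towards a call in the same direction here, and these shares are no independent result. A gene that was not called against C57BL/10J pre-mid cells is not thereby shown to be equal, because the counts of that comparison depended on single arrays. Without C57BL/10J pre-mid replicate 1 it called 11 genes higher and 51 lower, and without t12/T43 replicate 2 it called 691 and 779. The carrier arrays also lay above both C57BL/10J pre-mid arrays in the excess of 3' over 5' signal, and the part of RNA quality in this comparison was not tested. The 151 genes above both normal sorts included inflammatory and somatic genes. Cxcl2, a chemokine gene, stood at 7.44, 5.23 and 6.36 in Ttf/T43H cells, 8.49, 8.56 and 9.55 in t12/T43 cells, and 2.77 and 2.75 in mid-late cells, against 3.39 and 2.52 in C57BL/10J pre-mid cells. Fosb, an immediate early gene, stood at 6.19, 7.68 and 6.00 in Ttf/T43H cells, 6.06, 8.19 and 7.74 in t12/T43 cells, and 2.26 and 2.32 in mid-late cells, against 3.97 and 2.69 in C57BL/10J pre-mid cells. Wt1, a Sertoli cell transcription factor gene, stood at 8.32, 7.11 and 8.17 in Ttf/T43H cells, 8.32, 8.14 and 9.41 in t12/T43 cells, and 3.36 and 3.47 in mid-late cells, against 5.37 and 6.10 in C57BL/10J pre-mid cells. Cyp11a1, a steroid enzyme gene of Leydig cells, stood at 8.70, 6.44 and 6.84 in Ttf/T43H cells, 6.71, 8.52 and 10.50 in t12/T43 cells, and 2.27 and 2.48 in mid-late cells, against 4.31 and 1.99 in C57BL/10J pre-mid cells, and t12/T43 replicate 3 was its highest array.

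The 178 genes below both normal sorts included genes of late pachytene and the sperm tail. Against C57BL/10J pre-mid cells the change of Septin12 was -3.39 ± 0.44 (adjusted p = 0.0038), that of Tekt5 -3.0 ± 0.46 (adjusted p = 0.0077) and that of Papolb -2.57 ± 0.40 (adjusted p = 0.008). Acsbg2, an acyl-CoA synthetase gene of the testis on distal chromosome 17, stood at 3.67, 3.15 and 3.76 in Ttf/T43H cells, 2.25, 2.71 and 1.97 in t12/T43 cells, and 5.78 and 5.95 in mid-late cells, against 8.09 and 7.46 in C57BL/10J pre-mid cells. Its order of groups thus differed from that of most genes lower in carriers, with normal pre-mid cells highest. By list, 16 of 32 sperm tail genes, 9 of 12 spermatid chromatin genes and 9 of 22 genes of late pachytene metabolism were below C57BL/10J pre-mid cells, against 4.91% of the 9666 genes of that fit. Of the 27 acrosome genes, 3 were. These counts rest on the mean of the carrier groups and include genes not lower than mid-late cells in both genotypes. Of the 12 genes of the spermatid chromatin list, only 1, Hspb9, was lower than mid-late cells in both. The median change of that list from mid-late cells was 1.20 in Ttf/T43H and -2.62 in t12/T43 cells. The median change from C57BL/10J pre-mid cells was -1.71 for the tail list, -3.49 for spermatid chromatin, -0.81 for metabolism and -0.90 for the acrosome list, against 0.03 over all genes.

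Chromosome 17 differed from both normal sorts in its proximal part, which holds the region of the t haplotypes, and in its distal part. Proximal 17 was taken as the genes that start before Pgk2 in the RefSeq order of GRCm38.p6, and distal 17 as the others. Against mid-late cells, 48 of the 273 tested genes of proximal 17 were higher (17.6%) and 100 lower (36.6%), with a median change of -0.39. Against C57BL/10J pre-mid cells, 48 of the 273 were lower, beside 4.91% of the 9666 genes of that fit, and their median change was -0.36. The level of proximal 17 relative to the other autosomes was -0.65, -0.19 and -0.78 on the Ttf/T43H arrays, -0.84, -0.79 and -0.75 on the t12/T43 arrays and 0.07 and 0.09 on the mid-late arrays. It was -0.20 and -0.19 in C57BL/10J pre-mid cells, and Ttf/T43H replicate 2 was the single carrier array that did not lie below these. The normal pre-mid cells had a median change of -0.04 from mid-late cells for the same genes. Hsf2bp and Rsph1, a radial spoke gene, were lower than in both normal sorts. Rsph1 stood at 13.05, 12.14 and 13.40 in Ttf/T43H cells, 12.15, 13.02 and 12.15 in t12/T43 cells, and 15.00 and 15.45 in mid-late cells, against 14.77 and 15.17 in C57BL/10J pre-mid cells. Rnf5, a ubiquitin ligase gene, was above mid-late cells with changes of 3.47 ± 0.33 and 3.46 ± 0.33 but below C57BL/10J pre-mid cells with a change of -2.54 ± 0.28 (adjusted p = 0.0022). Distal 17 had 37 of 192 genes higher (19.3%) and 65 lower (33.9%) than mid-late cells, and 3 higher and 14 lower than C57BL/10J pre-mid cells. Its median change from mid-late cells was -0.37. The level of distal 17 relative to the other autosomes ranged from -0.37 to -0.31 over the carrier arrays. It was 0.19 and 0.22 in mid-late cells and -0.10 and -0.07 in C57BL/10J pre-mid cells, so no carrier array overlapped these. Chromosome 16, the other partner of the translocation, had 91 of 320 higher (28.4%) and 90 lower (28.1%), close to the shares of all genes. Its level relative to the other autosomes ranged from -0.42 to -0.25 over the carrier arrays, against -0.22 and -0.23 in mid-late cells and -0.11 and -0.14 in C57BL/10J pre-mid cells, so every carrier array was the lower by a small margin.

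**Figure D5:**
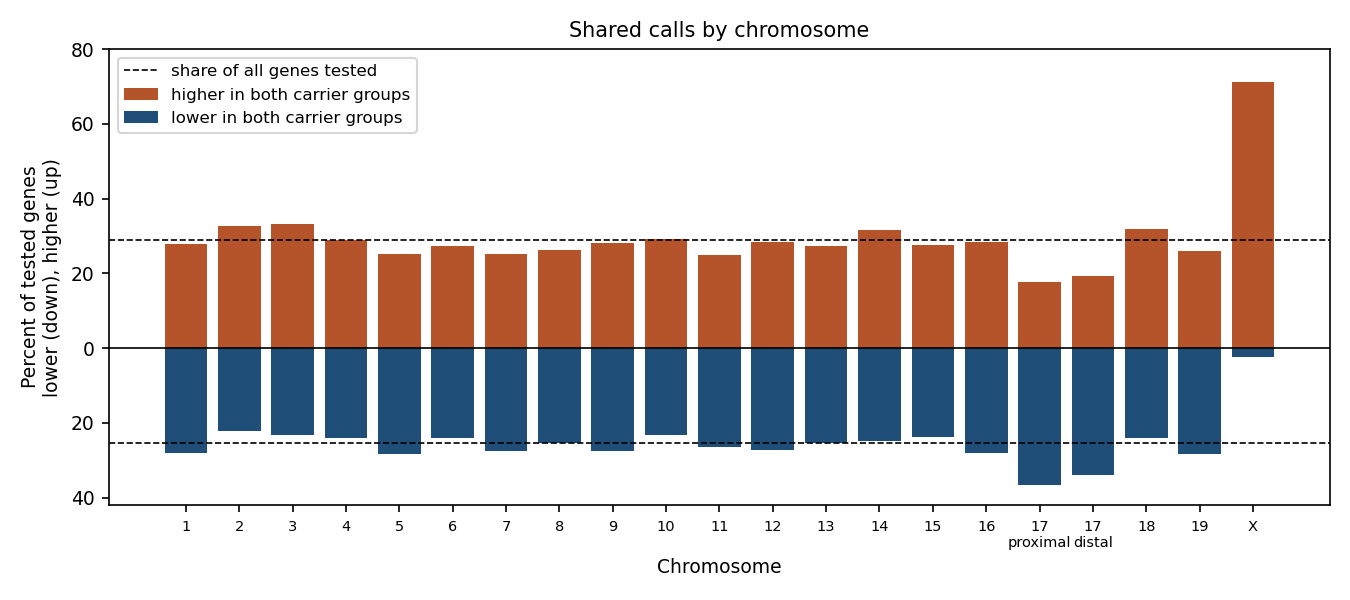
Percent of tested genes of each chromosome called higher (upward) and lower (downward) in both carrier groups than in mid-late cells. Dashed lines mark the shares over all 9591 genes. The X stands at 71.1% higher and 2.38% lower, and both parts of chromosome 17 have more genes lower (36.6% and 33.9%) than higher (17.6% and 19.3%).

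Sertoli genes and immediate early genes were for the most part higher in carriers than in mid-late cells. Against C57BL/10J pre-mid cells, 4 of 11 Sertoli, 2 of 6 Leydig and 6 of 21 immediate early and heat shock genes were higher, beside 2.82% of all genes. Of the Sertoli markers, Aard stood at 12.96, 12.68 and 12.94 in Ttf/T43H cells, 13.47, 12.59 and 14.47 in t12/T43 cells, and 4.5 and 5.47 in mid-late cells, and Clu, the clusterin gene, at 14.18, 13.78 and 13.84 in Ttf/T43H cells, 14.28, 13.36 and 15.08 in t12/T43 cells, and 7.99 and 8.33 in mid-late cells. C57BL/10J pre-mid cells had 11.25 and 11.52 for Aard and 13.46 and 13.35 for Clu, also far above mid-late cells. Of 6 Leydig genes tested, 3 were higher in both genotypes, namely Cyp11a1, Cyp17a1 and Ptgds. The mean of all 6 lay between 6.25 and 9.91 on carrier arrays, against 3.07 and 3.53 on mid-late arrays and 5.22 and 3.73 on C57BL/10J pre-mid arrays. Of 21 immediate early and heat shock genes, 13 were higher and 2 lower, with a median change of 4.55. Fos, an immediate early transcription factor gene, stood at 12.27, 12.75 and 12.24 in Ttf/T43H cells, 12.03, 12.44 and 13.20 in t12/T43 cells, and 4.90 and 6.16 in mid-late cells, with changes of 6.89 ± 0.47 and 7.03 ± 0.47 (adjusted p = 1.9e-05 and 1.4e-05). Nfkbia, the inhibitor gene of NF-kappaB, had changes of 6.18 ± 0.56 and 6.79 ± 0.56, Egr1 4.93 ± 0.42 and 5.18 ± 0.42 and the constitutive chaperone gene Hspa8 3.08 ± 0.29 and 3.02 ± 0.29. The 2 lower members were the stress genes Ddit3 and Dnajb1, with changes of -1.91 ± 0.31 and -1.46 ± 0.31 in the mean of the carrier groups. The part of these genes in the other differences was not tested.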

How the data were processed

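The deposited log2 values were made by the authors with GCRMA, per the submitters' processing notes; its version, and any further filter, is not given in the sources used here. Of 16539 probe sets, 15780 carry 1 gene symbol in the platform annotation and 759 none (64 of these controls), and each named gene has 1 value per array. Genes reaching log2 4 on at least 2 of the 8 arrays were kept: 392 genes had their second-highest value between 4 and 4.5, just inside, and 587 between 3.5 and 4, just outside. No count of reads or depth applies to arrays, whose number limits the precision. Means per group were fitted with limma 3.58.1 in R 4.3.3 (lmFit, eBayes), with p-values adjusted by Benjamini-Hochberg over all genes tested and a threshold of 0.05. A second fit of 10 arrays added C57BL/10J pre-mid cells and tested 9666 genes. The procedure was tested on simulated data. Array replicates come from separate samples per the labels.

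The members and gene lists were chosen with earlier results of these data known. Named genes are the 10 largest rises and 10 largest falls without overlap between groups, leaving out symbols of clones and predicted genes, up to 4 members per list or chromosome set with the smallest p, X and retrocopy pairs and a few further genes. The following were named outside that rule, after their values were seen: Hsf2bp, Papolb, Tex15, Plk1, Aurka, Acr, Gapdhs, Akap4, Akap14, Satl1, Fam47c, Nudt10, Rai2, 4931400O07Rik, 5730416F02Rik, Syce1, Rnf168, Ddit3, Dnajb1, Ly6k, Tex101, Ybx3, Rsph1, Fosb, Cxcl2, Rnf5, Tex13a, Acsbg2, Sphk1, Cth, Cd36, Adad1, Acta2, Tagln and Adgre1. Promoters are from RefSeq on GRCm38.p6. Alternatives covered the filter, normalization, the eBayes setting, the arrays fitted, a replicate block and each array left out. The 15-day testis arrays of the series were not used here.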

Additional observations from a re-analysis of the deposited data

Results flagged for a closer look

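Limma's direct test of t12/T43 minus Ttf/T43H called 42 genes, and 9 of them, which belong to the named genes or to the calls in opposite directions, are given here. The difference was -5.83 ± 0.45 (adjusted p = 0.0095) for Tnp2 and -4.44 ± 0.38 (adjusted p = 0.012) for Prm2. It was -4.88 ± 0.43 (adjusted p = 0.012) for Gapdhs, the glycolytic enzyme gene of the sperm tail, which stood at 9.46, 10.21 and 10.13 in Ttf/T43H cells, 4.62, 5.85 and 4.66 in t12/T43 cells, and 9.10 and 8.15 in mid-late cells. It was -4.76 ± 0.51 (adjusted p = 0.02) for Hspb9, a small heat shock protein gene of the testis, and -3.09 ± 0.42 (adjusted p = 0.04) for Prss37. It was -3.06 ± 0.33 (adjusted p = 0.02) for Dnajb13, a radial spoke gene, -2.73 ± 0.39 (adjusted p = 0.043) for Tcp11, -2.57 ± 0.39 (adjusted p = 0.0497) for 4933400A11Rik and -2.29 ± 0.26 (adjusted p = 0.022) for Spink2. These 9 were lower in t12/T43 than in Ttf/T43H cells, as were 39 of the 42, and Sphk1, Cth and Cd36 were higher. The mean of spermatid chromatin genes lay between 4.72 and 6.86 on the t12/T43 arrays and between 8.76 and 9.56 on the Ttf/T43H arrays, and its part in these differences was not tested.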

How the results depend on the processing

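With no filter on low values, all 15780 genes were tested, and genes lower in carriers numbered 6143 in Ttf/T43H, 6147 in t12/T43, 5767 in both and 6703 in the carrier mean, while 5940 were lower in C57BL/10J pre-mid than in mid-late cells and 155 were higher in carriers than in C57BL/10J pre-mid cells. The genes that fail the filter lie at background, and 89.1% of them were slightly lower in carriers, with a median of -0.18. The shares of higher among shared calls lay between 46.6% and 56.4% in the filtered settings, against 53.3% here, and at 32.3% without the filter. The comparison with C57BL/10J pre-mid cells depended on single arrays: leaving out 1 array gave 11 to 691 genes higher and 51 to 779 lower. Without both Ttf/T43H replicate 2 and t12/T43 replicate 3, an alternative added after seeing the data, 579 were higher. Whether replicate numbers pair the arrays was not settled. Same-number correlations of deviations from group means were 0.251, 0.02 and -0.349 between the carrier groups and 0.166 between the 2 C57BL/10J sorts. Deviations from means of 2 or 3 arrays are bound to cancel, so these values cannot decide it. The fit with the replicate block called 34 genes higher and 157 lower than C57BL/10J pre-mid cells, against 273 and 475 without it. Leaving out each array in turn, 1989 of the genes higher and 1739 of those lower in both genotypes kept their call in every such fit. Of 175 named genes with a call, 160 kept it in every setting that tested them. Named genes were picked in part for large changes or small p, so this count does not describe the shared calls at large. The uncalled gene Hspa2 turned to 0.029 under quantile normalization, 0.063 without both arrays and between -0.344 and 0.115 in fits that left out an array. The uncalled Spo11 turned to 0.0041, 0.069 and between -0.333 and 0.088 in the same settings. Values under a log2 value of 4 lie near background, so the size of the largest changes is uncertain: counting such values as 4 gave at least 309-fold for Prss50, against 1190-fold in the fit.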

Other observations

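Gene families used by every cell were also measured in the carrier cells. Of 21 cytosolic ribosomal protein genes tested, 8 were higher in both genotypes than in mid-late cells and 13 were not called (38.1% against 29% of all genes), with a median change of 1.32. Without t12/T43 replicate 1 or 3 or mid-late replicate 1, 5 were higher. Rpl15 stood at 10.80, 9.42 and 11.19 in Ttf/T43H cells, 11.02, 11.75 and 10.91 in t12/T43 cells, and 4.96 and 3.84 in mid-late cells, with changes of 6.07 ± 0.59 and 6.83 ± 0.59, and Rpl22 had 4.22 ± 0.33 and 4.99 ± 0.33. Of 72 mitochondrial ribosomal protein genes, 21 were higher and 6 lower, with a median of 0.30, against 11 and 3 without mid-late replicate 1 and 2 lower without mid-late replicate 2. Of 63 respiratory chain genes, 13 were higher and 1 lower, Ndufa4l2, and the median of 0.25 became -0.05 under median centring. Without mid-late replicate 1, 6 of them were higher, and 3 were lower without Ttf/T43H or t12/T43 replicate 2. Ndufa4l2 had changes of -5.10 ± 0.34 and -5.10 ± 0.34 and the related gene Ndufa4 4.58 ± 0.52 and 4.44 ± 0.52. Of 24 splicing factor genes, 12 were higher and 1 lower (50% higher against 29% of all genes), with a median of 1.27, and Srsf6 had changes of 2.82 ± 0.29 and 2.84 ± 0.29. Of 30 proteasome genes, 8 were higher and 2 lower, with 5 and 3 higher without mid-late replicate 1 or 2 and 1 lower in most fits that left out an array. Of 44 translation initiation genes, 11 were higher and 4 lower, with 6 higher without mid-late replicate 1. The higher shares of the mitochondrial ribosomal, respiratory chain, proteasome and translation initiation lists were 29.2%, 20.6%, 26.7% and 25%, near or below the 29% of all genes. Their lower shares of 8.33%, 1.59%, 6.67% and 9.09% all lay under the 25.4% of all genes.

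Some further families are given with single members. Cct6b, the testis form of a subunit of the CCT chaperonin, was the lower member among 8 tested (2 without Ttf/T43H replicate 2), at 10.38, 9.69 and 11.16 in Ttf/T43H cells, 8.83, 9.88 and 9.01 in t12/T43 cells, and 14.15 and 14.46 in mid-late cells, with changes of -3.89 ± 0.48 and -5.07 ± 0.48. Of 211 zinc finger protein genes, 45 were higher (21.3%) and 71 lower (33.65%), beside 29% and 25.4% of all genes. Without mid-late replicate 1, 28 were higher. Zfp280b stood at 9.27, 10.29 and 9.19 in Ttf/T43H cells, 9.63, 9.98 and 10.13 in t12/T43 cells, and 1.99 and 1.68 in mid-late cells, with changes of 7.75 ± 0.38 and 8.08 ± 0.38, and Zfp78 had -4.95 ± 0.21 and -4.97 ± 0.21. Of 28 kinesin genes, 2 were higher (7.14%, all genes 29%) and 6 lower (21.4%, all genes 25.4%). Without Ttf/T43H replicate 2, 4 were higher, and without mid-late replicate 2, 1 was. Of 18 genes of the piRNA pathway, which silences transposons in germ cells, 4 were higher (22.2%, all genes 29%) and 6 lower (33.3%, all genes 25.4%). These counts rested on single arrays, with 1 and 3 without mid-late replicate 1, 2 and 1 without mid-late replicate 2, 1 higher without Ttf/T43H replicate 1 or 3, and 2 higher without t12/T43 replicate 1 or 3. Mov10l1, a helicase gene of piRNA processing, stood at 13.95, 12.53 and 13.98 in Ttf/T43H cells, 14.12, 13.49 and 14.19 in t12/T43 cells, and 9.72 and 10.00 in mid-late cells, with changes of 3.63 ± 0.48 and 4.08 ± 0.48, while Henmt1, which methylates the ends of piRNAs, stood at 3.90, 2.68 and 5.19 in Ttf/T43H cells, 3.79, 3.97 and 2.36 in t12/T43 cells, and 8.97 and 9.50 in mid-late cells, with changes of -5.32 ± 0.76 and -5.86 ± 0.76. Of 13 p53 target and apoptosis genes, 5 were higher (38.5%, all genes 29%) and 1 lower (7.69%, all genes 25.4%). Ccng1, a cyclin G gene induced by p53, stood at 7.43, 8.97 and 6.97 in Ttf/T43H cells, 7.80, 7.97 and 7.87 in t12/T43 cells, and 3.17 and 3.66 in mid-late cells, with changes of 4.37 ± 0.55 and 4.46 ± 0.55, and C57BL/10J pre-mid cells had 7.10 and 7.50. The member lower in carriers was Zmat3, with changes of -3.57 ± 0.48 and -3.11 ± 0.48.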
